A study of Saccharomyces cerevisiae with 4 samples.

Results

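DNA replication in budding yeast starts at fixed chromosomal origins and is carried out by protein complexes that travel with the fork. The genes described here are 44 such genes: the origin recognition complex, the loading factor Cdc6 and subunits of the MCM helicase, the helicase activators, the firing factors, the 3 replicative polymerases, the sliding clamp and its loader, replication protein A and the enzymes that join Okazaki fragments. They were taken as a named list, each gene through the probe that carries its systematic reading frame name. All 44 were found, with 1 probe each, and all 44 were among the 6144 genes tested. Each gave a signal well above background throughout, and no spot of theirs was left out.

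RNA came from Saccharomyces cerevisiae of a strain labelled BY4741, grown in the rich glucose medium YPD at 30 °C, with an estradiol-inducible Msn2A6. Msn2 is a zinc finger activator of stress genes, and the A6 form escapes inhibition by protein kinase A. One group of 2 arrays held untreated cultures (0 min, Msn2A6 not induced), and the other group of 2 arrays held cultures harvested 90 min after 6 nM 17β-estradiol was added. All 4 arrays carried the inducible allele. The promoter that answers to estradiol, the state of the chromosomal MSN2 gene and the number of clones are not stated in the sources used here.

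The 2 replicates of a group are described as biological, and the p-values measure the spread between these arrays only. No sample without estradiol at 90 min was analysed here, so estradiol, Msn2A6 and the extra growth time cannot be told apart. MSN2 itself had a signal of 0.650% and 0.611% of the array's 75th percentile at 0 min and 3.78% and 3.24% at 90 min, higher on both arrays at 90 min. The genes of the MATa mating type MFA1, MFA2, STE2 and BAR1 lay between 17.3% and 104.0%, and those of MATalpha cells (MF(ALPHA)1, MF(ALPHA)2 and STE3) between 0.212% and 1.11%. BY4741 as commonly distributed has no working copy of HIS3, LEU2, MET17 or URA3. The probes of all 4 were well above background on every array, between 173% and 3406%.

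The order of events at an origin is well known. In late mitosis and G1 the origin recognition complex and Cdc6 load the MCM helicase, a step called licensing. As S phase starts, the Dbf4-dependent kinase (Cdc7 with Dbf4) and the S phase cyclin kinase bring Cdc45 and the GINS complex to the helicase, polymerase alpha-primase lays primers, and polymerases epsilon and delta extend the strands with the clamp encoded by POL30. Many of these genes are transcribed periodically, with those for CDC6 and the MCM subunits peaking between M and G1 and those such as POL1, CDC9 and POL30 peaking at the passage from G1 to S.

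The comparison asks how transcripts of this machinery stood 90 min after induction. Most were modestly lower. Of the 44 genes, 33 fell and 3 rose (limma, two-sided, Benjamini-Hochberg adjusted p under 0.05), and 8 did not pass. That is 75% of the list lower, against 46.2% of all genes tested, while 30.3% of all genes rose and 76.5% were called in either direction. The median log2 change of the 44 genes was -0.32, against -0.13 for all genes, and 36 of the 44 lay below the median of all genes. The median gap between replicate arrays for these genes was 0.06 log2 at 0 min and 0.07 at 90 min.

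The falls were small. The genes that fell did so by 1.14-fold to 1.97-fold. With a change of at least 2-fold also required, 0 of 44 passed, where 3.87% of all genes fell and 8.92% rose that much. With no fold limit, 33 were lower and 3 higher at an unadjusted p under 0.05 in the limma fit. At a log2 change beyond 0.5, 9 of the 44 fell (20.5%), close to the 19.4% of all genes, and 2 rose (4.55%) against 18.0% of all genes. The lower quartile of change was -0.42 in the list and -0.41 over all genes, whereas the upper quartile was -0.18 in the list and 0.31 over all genes. In these counts on this scale, the list differed from all genes by its few rises rather than by the depth of its falls. Both 90 min arrays lay below both 0 min arrays for 37 of the 44 genes (52.9% of all genes), both lay above for 4 (35.6% of all genes), and the groups overlapped for ORC1, ORC6 and RFC5 (11.6% of all genes).

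**Figure D1:**
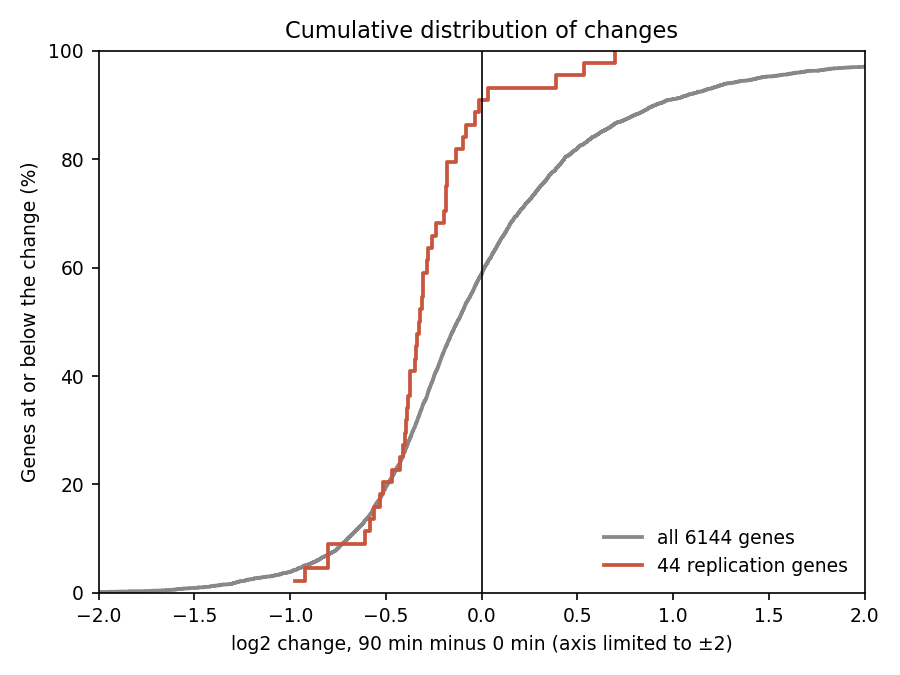
Cumulative share of genes (vertical axis, %) at or below a given log2 change from 0 to 90 min (horizontal axis, limited to ±2), for all 6144 genes and for the 44 replication genes. The curves run together up to the lower quartile near -0.41, and above it the replication genes climb earlier, with an upper quartile of -0.18 against 0.31.

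These changes take the 75th percentile of an array as their reference. Scaling on spike-in control RNA in its place lowers every log2 change by 0.45, and the median of all genes is then -0.58. With it 41 of the 44 genes fell (62.7% of all genes) and 0 rose (limma, also 0 at an unadjusted p under 0.05, against 11.1% of all genes called higher), and the list median was -0.78. On the spike-in scale 38 of the 44 genes fell by a log2 change beyond 0.5 (86.4%), against 3418 of all 6144 genes. The largest fall in the list was then 2.69-fold, so counts at a fixed cutoff depend on the scaling. The spike-in signal itself differed by 0.30 log2 between the 0 min arrays, so that setting has a wide error. The distance between the list median and the median of all genes was -0.20 in both scalings. It could not differ, since each scaling shifts all genes of an array alike. In RNA from whole cultures, fewer cells passing through S phase and less of a transcript in each cell cannot be told apart.

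**Figure D2:**
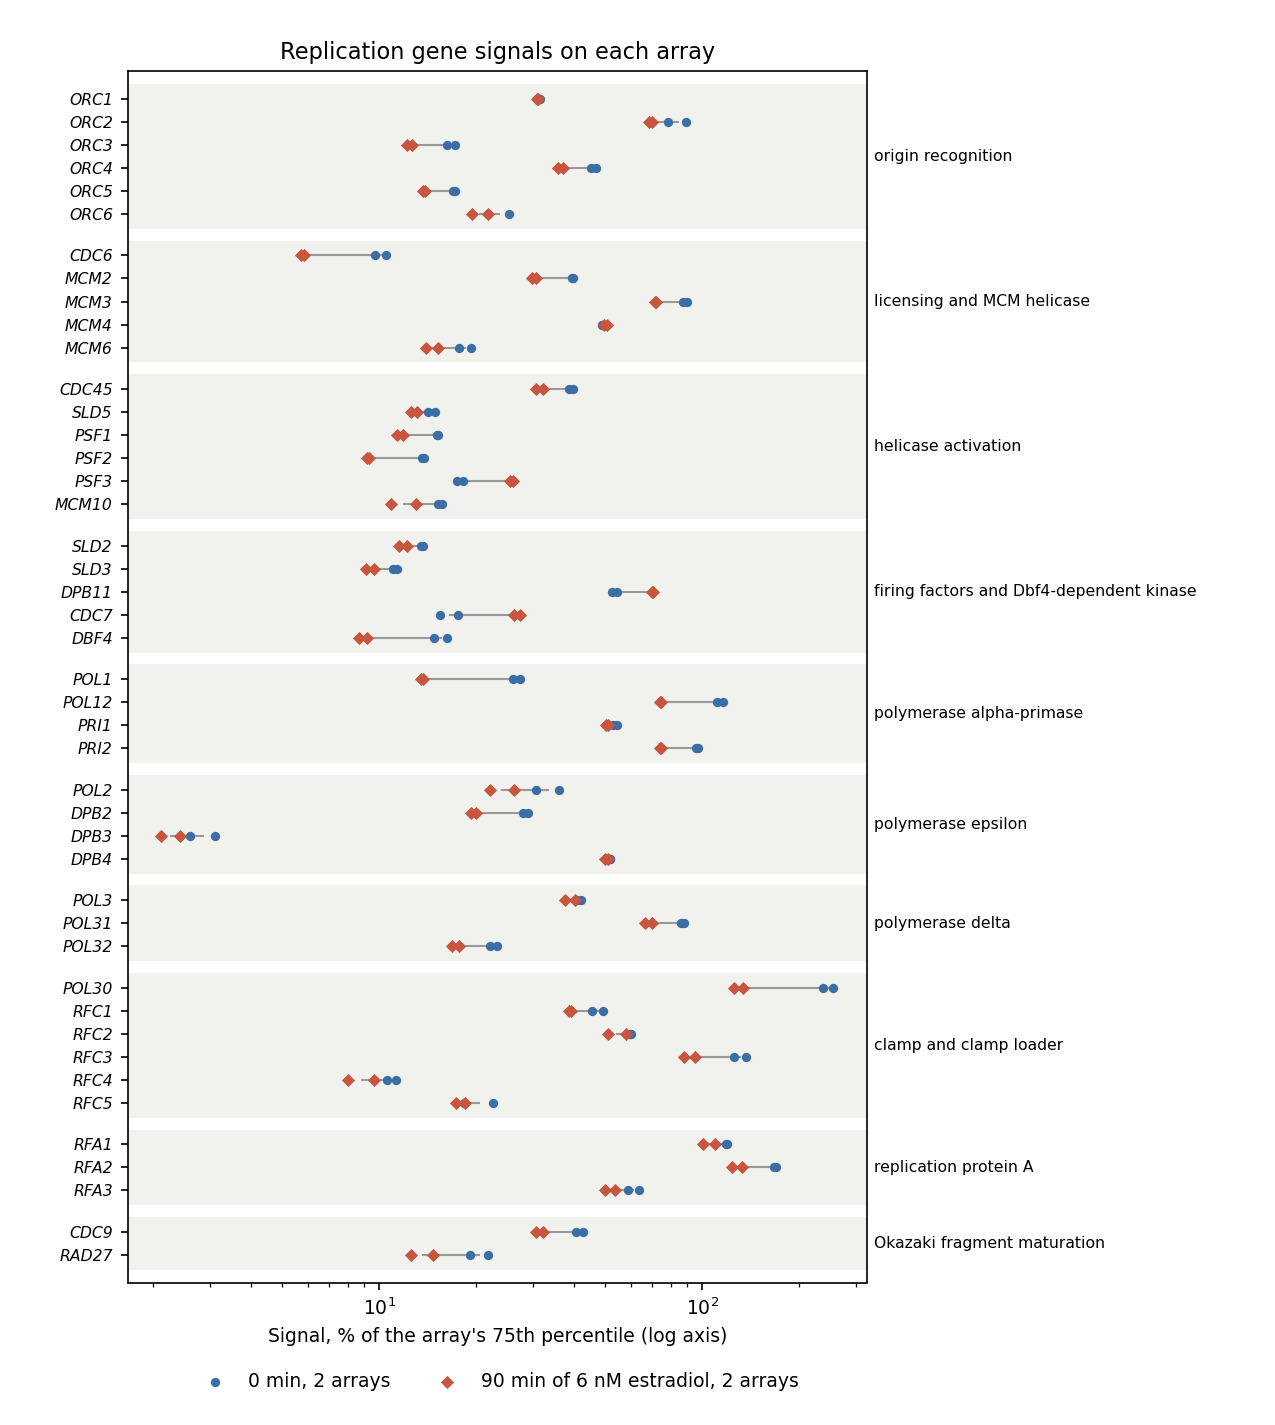
Signal of each of the 44 replication genes on each array, as a percentage of that array's 75th percentile on a log axis. Circles are the 2 arrays at 0 min, diamonds the 2 arrays at 90 min, and grey lines join the group means. Diamonds lie to the left of circles for 37 genes. Positions of different genes are not comparable, since each has its own probe.

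The origin recognition complex is made of 6 subunits that stay on origin DNA through the cell cycle, and 4 of their 6 genes fell. Beside this and the other counts by role, 46.2% of all genes tested fell and 30.3% rose. ORC3 gave 16.2% and 17.2% of the 75th percentile at 0 min and 12.6% and 12.2% at 90 min, and its log2 change of -0.43 ± 0.06 (SE, n = 2 per group, adjusted p = 0.0007 in the limma fit) was the largest of the complex. ORC4 went from 45.1% and 46.9% to 35.7% and 37.0% (-0.34 ± 0.06). ORC5 went from 16.9% and 17.2% to 13.7% and 13.8% (-0.31 ± 0.05). In these 3 genes the gap between the groups was wider than the gap within either. ORC2 fell by 0.28 ± 0.08, from 78.5% and 89.3% to 69.7% and 68.2%, and without replicate 2 at 0 min its change of -0.19 did not pass (adjusted p = 0.0717).

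ORC1 encodes the largest subunit, an ATPase that contacts Cdc6. Its signal was 30.8% and 31.5% at 0 min and 30.9% and 30.8% at 90 min, with a log2 change of -0.01 and a 95% interval of -0.14 to 0.12. The 2 groups overlapped completely. That interval did not overlap those of ORC3 (-0.57 to -0.28), ORC4 (-0.48 to -0.20) or ORC5 (-0.44 to -0.18). ORC6, which is needed to load MCM but not to bind the origin, gave 25.2% and 21.7% at 0 min and 21.7% and 19.4% at 90 min. Its interval ran from -0.41 to 0.04, and leaving out 1 array moved its change both ways. It passed as lower without replicate 2 at 0 min (-0.30, adjusted p = 0.038), and was -0.075 without replicate 1 at 0 min (adjusted p = 0.509) and -0.10 without replicate 2 at 90 min (adjusted p = 0.402).

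Among CDC6 and the 4 MCM ring genes of the list (MCM2, MCM3, MCM4 and MCM6), the largest fall was that of CDC6. CDC6, the ATPase that completes the ring around DNA and recruits MCM, went from 9.71% and 10.5% to 5.71% and 5.85%. Both 90 min arrays were well below both 0 min arrays, a 1.75-fold fall (log2 change -0.80 ± 0.06, adjusted p = 4.45e-05). Of all genes, 7.00% had a change as low or lower. The MCM subunits form the hexameric ring that unwinds DNA, and of their 4 genes in the list 3 fell, each by less than CDC6. MCM7, a ring gene outside the list that is given with the further replisome factors, fell by 0.97 ± 0.05.

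MCM2 gave 39.5% and 39.9% at 0 min and 30.5% and 29.7% at 90 min (log2 change -0.40 ± 0.06). MCM6 gave 19.3% and 17.7%, then 15.2% and 13.9% (-0.34 ± 0.07). MCM3 fell by 0.31 ± 0.05, from 89.6% and 87.5% to 71.7% and 71.5%. The interval of CDC6, -0.96 to -0.65, did not reach that of any of these 3 genes, the nearest being MCM2 at -0.53 to -0.27. MCM4 was the ring gene of the list that did not pass. It gave 48.9% and 49.0% at 0 min and 50.7% and 49.5% at 90 min, so its groups lay just apart, with a log2 change of 0.03 (interval -0.10 to 0.16), or -0.42 with spike-in scaling, where it was called lower (adjusted p = 0.0365).

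The helicase is activated when Cdc45 and the 4-subunit GINS complex (Sld5, Psf1, Psf2 and Psf3) join MCM, and Mcm10 acts in the same step. Of these 6 genes, 5 fell and 1 rose. PSF2 fell from 13.5% and 13.7% to 9.28% and 9.18%, a log2 change of -0.56 ± 0.05 (adjusted p = 0.000118). PSF1 fell from 15.2% and 15.1% to 11.4% and 11.9% (-0.38 ± 0.06). For both genes the 2 arrays of a group were nearly equal beside the distance between groups.

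PSF3 moved the other way. Its signal was 17.4% and 18.1% at 0 min and 25.4% and 26.0% at 90 min, and it rose 1.45-fold (log2 change 0.54 ± 0.06, adjusted p = 0.00019), while with spike-in scaling the change was 0.08 and did not pass (adjusted p = 0.701). The 95% interval of PSF3, 0.40 to 0.67, lay wholly above those of PSF1 (-0.52 to -0.25), PSF2 (-0.69 to -0.43) and SLD5 (-0.33 to -0.04), the genes of its partners in GINS, and their order is untouched by a scaling that shifts all genes of an array alike. SLD5 fell by 0.18 ± 0.06, and this small change did not pass with median scaling (-0.14, adjusted p = 0.068), with quantile normalization (-0.15, adjusted p = 0.0562) or without either 0 min array or replicate 2 at 90 min. CDC45 fell by 0.32 ± 0.06, from 38.6% and 39.8% to 30.6% and 32.1%, and MCM10 by 0.37 ± 0.09, from 15.6% and 15.2% to 13.0% and 10.8%. The size of the fall of MCM10 rested on the 90 min arrays: it was -0.24 without replicate 2 at 90 min and -0.51 without replicate 1 at 90 min, and passed in both cases (adjusted p = 0.0245 and 0.00124).

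Firing of a licensed origin depends on the kinase made of Cdc7 and its regulatory subunit Dbf4, and on Sld2, Sld3 and Dpb11, which hold the activators together once phosphorylated. This group was split, with 3 genes lower and 2 higher. DBF4 went from 16.3% and 14.8% to 9.16% and 8.63%, a 1.75-fold fall (log2 change -0.80 ± 0.07, adjusted p = 7.24e-05). CDC7, the catalytic subunit, went from 17.6% and 15.4% to 27.2% and 26.1%. It rose 1.62-fold (0.69 ± 0.08, adjusted p = 0.00022), the largest rise among the 44 genes, or 0.24 with spike-in scaling, where it did not pass (adjusted p = 0.238). The genes for the 2 subunits of the kinase thus had opposite signs on the main scale, and their intervals, -0.97 to -0.64 for DBF4 and 0.51 to 0.88 for CDC7, lay far apart.

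DPB11, a scaffold with BRCT repeats that also serves the damage checkpoint, gave 52.4% and 54.5% at 0 min and 70.4% and 69.7% at 90 min. It rose by 0.39 ± 0.06 on the log2 scale (adjusted p = 0.000778), but its change was 0.20 with no scaling between arrays (adjusted p = 0.0702) and -0.063 with spike-in scaling (adjusted p = 0.769). The 2 genes of the partners that bind Dpb11 were slightly lower. SLD3 fell by 0.26 ± 0.06, from 11.4% and 11.1% to 9.66% and 9.08%. SLD2 fell by 0.20 ± 0.06, from 13.7% and 13.4% to 12.2% and 11.5%, and did not pass without either 0 min array or without replicate 2 at 90 min (adjusted p = 0.06 to 0.0945).

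**Figure D3:**
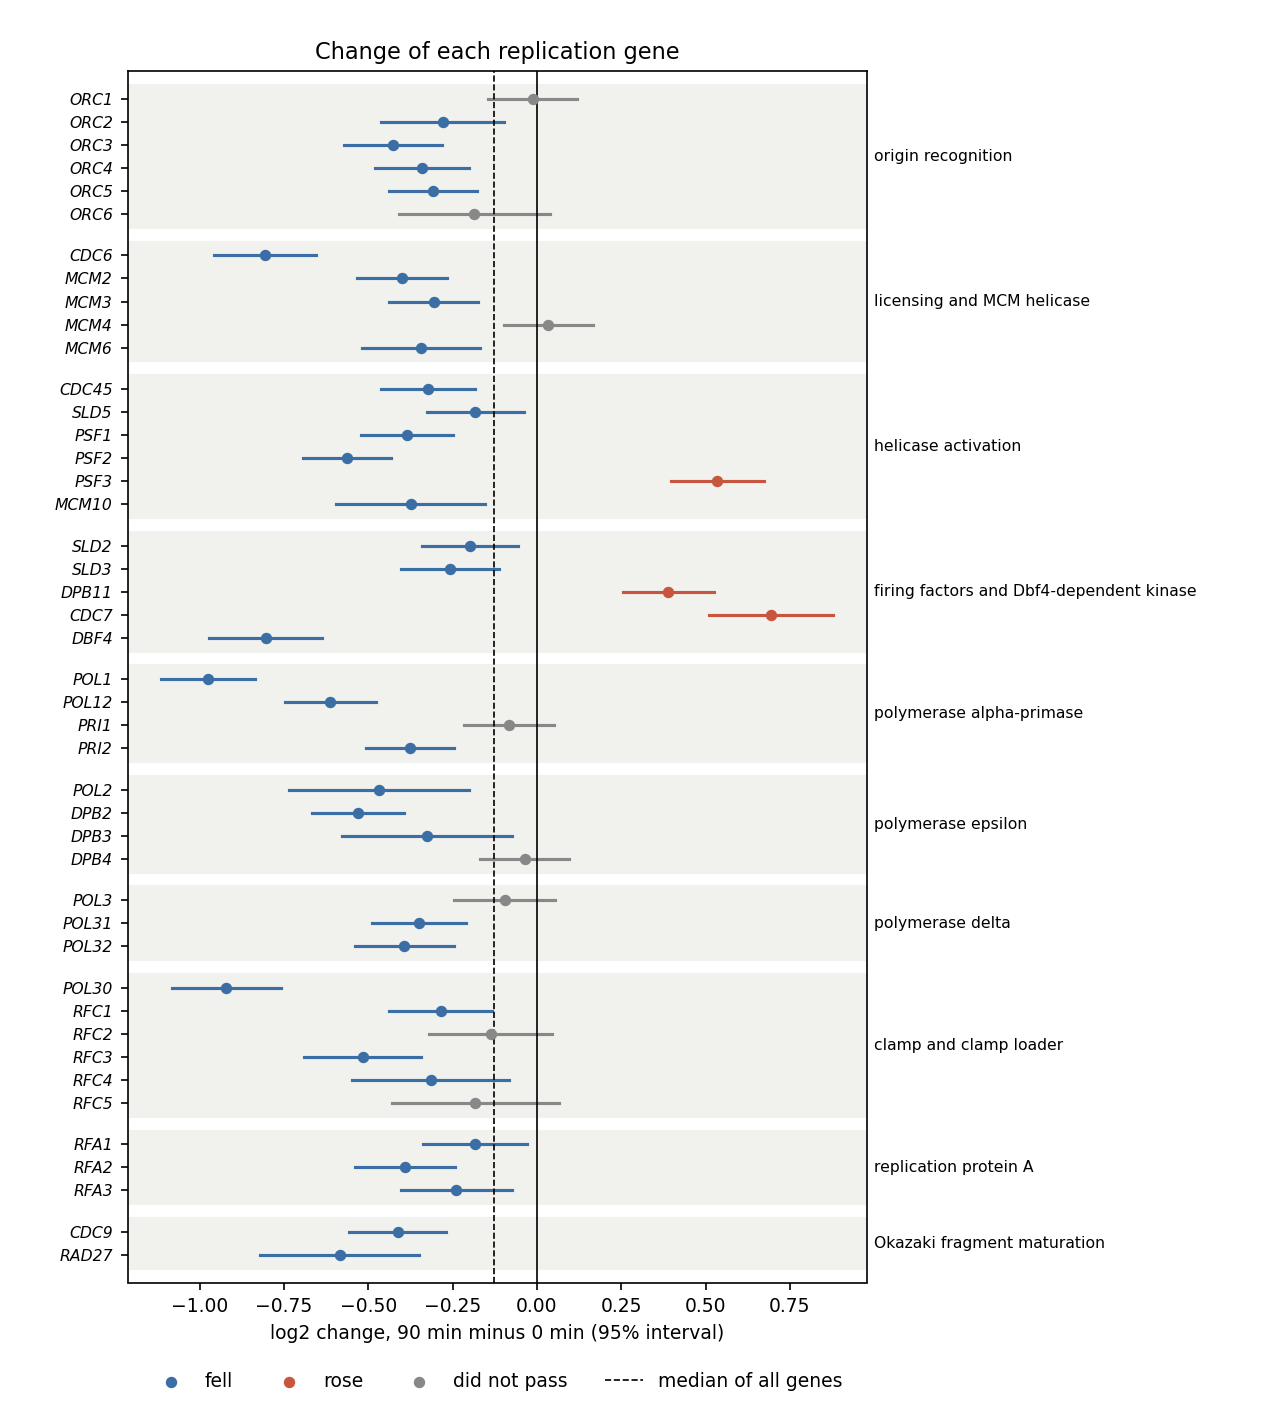
Log2 change from 0 to 90 min for each of the 44 replication genes, by role, with 95% intervals from the limma fit (2 arrays per group). Blue genes fell (33), red genes rose (3) and grey genes did not pass (8), relative to each array's 75th percentile. The dashed line marks the median of all genes, -0.13. PSF3, DPB11 and CDC7 stand to the right of the rest, and none of these 3 rises passed with spike-in scaling.

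Polymerase alpha-primase makes the RNA-DNA primers of both strands. Its largest subunit gene, POL1, had the largest fall of all 44 genes. The signal of POL1 was 27.4% and 26.0% at 0 min and 13.7% and 13.5% at 90 min. This is a 1.97-fold fall (log2 change -0.97 ± 0.06, adjusted p = 1.29e-05), and 4.25% of all genes had a change as low or lower. POL12, the regulatory B subunit, fell 1.53-fold, from 111% and 116% to 74.4% and 73.9% (-0.61 ± 0.06). PRI2, the large primase subunit, fell 1.30-fold, from 95.7% and 96.7% to 74.3% and 73.9% (-0.38 ± 0.05).

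PRI1, the catalytic primase subunit, stood apart from its partners. It gave 54.4% and 52.9% at 0 min and 50.3% and 51.0% at 90 min, a log2 change of -0.08 with an interval of -0.22 to 0.05. The groups did not overlap, but the gap was too small to pass (adjusted p = 0.208). The intervals of POL1 (-1.11 to -0.84), POL12 (-0.75 to -0.48) and PRI2 (-0.51 to -0.25) all lay below that of PRI1.

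Polymerase epsilon copies the leading strand. DPB2, the essential second subunit, which also ties the polymerase to GINS, fell from 28.8% and 27.8% to 19.3% and 19.9% (log2 change -0.53 ± 0.06, adjusted p = 0.000197). POL2, the catalytic subunit, gave 36.0% and 30.5% at 0 min and 26.2% and 22.0% at 90 min. The replicates of POL2 were wider apart than those of most members, so its fall of 0.47 has an SE of 0.11, the widest among the 44 genes. DPB3 and DPB4 encode small histone-fold subunits that pair with each other. DPB3 had a low signal, 3.10% and 2.59% at 0 min and 2.42% and 2.11% at 90 min. It fell by 0.33 ± 0.11, and did not pass without replicate 1 at 0 min (-0.20, adjusted p = 0.146) or replicate 2 at 90 min (-0.23, adjusted p = 0.122). The size of the DPB3 fall also moved with the processing. It was -0.58 with quantile normalization, -0.52 with the deposited values and -0.24 with normexp background correction, and was called lower in each. DPB4 did not pass, at 51.7% and 51.6% against 49.9% and 50.9% (-0.04, interval -0.17 to 0.09).

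Polymerase delta copies the lagging strand. Its catalytic gene POL3 gave 42.2% and 41.0% at 0 min and 40.4% and 37.5% at 90 min, and did not pass (log2 change -0.10, interval -0.25 to 0.05). The 2 smaller subunit genes fell. POL32, the nonessential subunit that binds the clamp, went from 23.2% and 22.1% to 17.7% and 16.8% (-0.39 ± 0.06, adjusted p = 0.00109). POL31 went from 88.1% and 86.0% to 66.7% and 70.0% (-0.35 ± 0.06, adjusted p = 0.00152). The interval of POL3 overlapped that of POL31 (-0.49 to -0.21) and met that of POL32 (-0.54 to -0.25) almost end to end, so the 3 genes of the enzyme are barely separated by these data.

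The clamp, PCNA, is a ring of 3 identical subunits encoded by POL30 that keeps polymerases on DNA. POL30 gave 236% and 255% of the 75th percentile at 0 min and 125% and 134% at 90 min. The 2 groups were far apart beside the spread within them, and the fall was 1.89-fold (log2 change -0.92 ± 0.07, adjusted p = 3.29e-05), second to that of POL1. Rfc1 to Rfc5 form the loader that opens the clamp, and their genes fell less or did not pass. RFC3 fell from 125% and 136% to 87.7% and 95.3% (-0.52 ± 0.07). RFC4 fell from 11.3% and 10.6% to 9.67% and 8.00% (-0.31 ± 0.10). RFC1, the large subunit, fell from 45.6% and 49.5% to 38.7% and 39.3% (-0.29 ± 0.06).

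The 2 remaining loader genes were lower on average without passing. RFC2 gave 59.9% and 60.0% at 0 min and 51.0% and 58.3% at 90 min (-0.14, interval -0.32 to 0.05), and without replicate 2 at 90 min it passed as lower (-0.23, adjusted p = 0.0269), whereas without replicate 1 at 90 min its change was -0.041 (adjusted p = 0.626). RFC5 gave 22.5% and 18.2% at 0 min and 18.4% and 17.3% at 90 min (-0.18, interval -0.43 to 0.06). Its 0 min arrays differed by 0.30 log2, the widest replicate gap at 0 min among the 44 genes, and without replicate 2 at 0 min it passed as lower (-0.33, adjusted p = 0.0141), whereas without replicate 1 at 0 min its change was -0.031 (adjusted p = 0.745). The widest gap at 90 min, 0.27, belonged to RFC4, whose call was lost without replicate 1 at 0 min (adjusted p = 0.111) or replicate 2 at 90 min (-0.18, adjusted p = 0.0855). The interval of POL30, -1.08 to -0.76, lay below those of all 5 loader genes, of which RFC3 came nearest at -0.69 to -0.34.

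Replication protein A coats the single strands that the helicase exposes, and all 3 of its genes fell by modest amounts. RFA2 went from 166% and 170% to 123% and 133% (log2 change -0.39 ± 0.06, adjusted p = 0.00122). RFA3 went from 63.7% and 58.8% to 53.7% and 50.1% (-0.24 ± 0.07). RFA1 went from 119.7% and 118% to 100.3% and 109% (-0.18 ± 0.06). RFA2 was the firmest of the 3. RFA3 did not pass without replicate 1 at 0 min (adjusted p = 0.103) or replicate 2 at 90 min (adjusted p = 0.0821), and RFA1 did not pass with median scaling (adjusted p = 0.0992) or without either 0 min array or replicate 1 at 90 min (adjusted p = 0.101 to 0.175), its change being -0.12 without the last.

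Okazaki fragments are trimmed by the flap nuclease Rad27 and sealed by the DNA ligase Cdc9. RAD27 fell from 21.7% and 19.1% to 14.7% and 12.5% (-0.58 ± 0.10, adjusted p = 0.00156), and CDC9 fell from 42.7% and 40.7% to 30.7% and 32.0% (-0.41 ± 0.06, adjusted p = 0.000792). In both genes each 90 min array was below each 0 min array.

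Seen across the roles, the median log2 change was lowest for Okazaki fragment maturation (-0.50) and polymerase alpha-primase (-0.49), followed by polymerase epsilon (-0.40). Helicase activation and polymerase delta each had a median of -0.35, licensing -0.34, the clamp and its loader -0.30, origin recognition -0.29 and replication protein A -0.24. The firing group was highest, at -0.20. Each of these medians rests on 2 to 6 genes, and changes within a role could span more than the medians. The firing group ran from -0.80 to 0.69, helicase activation from -0.56 to 0.54 and licensing from -0.80 to 0.03. Polymerase alpha-primase ran from -0.97 to -0.08, and the clamp and its loader from -0.92 to -0.14.

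The partners of these genes in replication were read from lists of other genes. Their counts are to be read beside the 46.2% of all genes that fell and the 30.3% that rose. Among 17 further replisome factors, 12 fell and 1 rose, and the median was -0.29. MCM7, another subunit of the helicase ring, fell from 31.3% and 31.3% to 15.9% and 16.1% (-0.97 ± 0.05), and MCM5 fell by 0.30 ± 0.06. RNH201 and RNH202, of the ribonuclease that removes RNA from DNA, fell by 0.92 ± 0.08 and 0.62 ± 0.06, and POB3, of the histone chaperone FACT, by 0.48 ± 0.06. TOF1, of the complex that paces the fork, was the factor that rose, by 0.32 ± 0.06, or -0.14 with spike-in scaling. TAH11, which encodes the Cdt1 protein that brings MCM to origins, did not pass (-0.04 ± 0.06).

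Of 5 genes of alternative clamp loaders, which share Rfc2 to Rfc5 but replace Rfc1, 3 fell and 1 rose. CTF18 fell by 0.73 ± 0.06, DCC1 by 0.45 ± 0.05 and ELG1 by 0.36 ± 0.06, while CTF8, whose product sits in the same loader as Ctf18 and Dcc1, rose by 0.22 ± 0.06, or -0.23 with spike-in scaling. In deoxynucleotide supply 8 of 11 genes fell and the other 3 rose, at a median of -0.41. RNR1, the large subunit of ribonucleotide reductase, fell 2.58-fold, from 256% and 243% to 96.6% and 96.6%, and RNR2 fell 2.00-fold. The damage-inducible large subunit gene RNR3 rose 1.78-fold (a call lost with spike-in scaling, adjusted p = 0.0627), and CRT1 (RFX1), which encodes the repressor of RNR3, rose 2.32-fold.

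Cohesion is laid down at the fork, and 6 of 9 of its genes fell while 3 did not pass, with a median of -0.57. MCD1, the kleisin subunit of cohesin, fell 2.49-fold, from 69.9% and 69.0% to 27.8% and 28.0%, and PDS5, SMC3 and SCC2 fell by 0.75 ± 0.06, 0.72 ± 0.08 and 0.61 ± 0.10. In chromatin assembly behind the fork, 5 of 8 genes fell and 1 rose. RTT109, the histone H3 acetyltransferase, fell by 0.62 ± 0.07, and the CAF-1 subunit genes RLF2 and MSI1 fell by 0.45 ± 0.06 and 0.42 ± 0.06, whereas CAC2, which encodes the remaining CAF-1 subunit, rose by 0.51 ± 0.06, or 0.06 with spike-in scaling (adjusted p = 0.785). Of 9 checkpoint genes, 3 fell (33.3%, against 46.2% of all genes), 2 rose and 4 did not pass, at a median of 0.00. LCD1 (DDC2) fell by 0.53 ± 0.06 and RAD53, the effector kinase gene, by 0.27 ± 0.06. CHK1 rose by 0.57 ± 0.05 and TEL1 by 0.22 ± 0.07, and with spike-in scaling these were 0.12 (adjusted p = 0.578) and -0.24 (adjusted p = 0.246).

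Regulators of the G1 to S step were mixed. Of 8 transcription regulators 3 fell (37.5%, against 46.2% of all genes), 2 rose and 3 did not pass. NRM1, the corepressor that closes the G1 to S programme and is itself one of its targets, fell 2.67-fold, and MSA1 rose 2.38-fold. SWI6, a subunit shared by the factors MBF and SBF, fell by 0.33 ± 0.06, SWI4, the DNA-binding subunit of SBF, by 0.20 ± 0.06, and MBP1, the DNA-binding subunit of MBF, did not pass (0.03 ± 0.06). Of 7 S phase cyclins and control genes, 3 fell, 3 rose and 1 did not pass, at a median of -0.16. CLB6 fell 2.52-fold and CLB5 1.68-fold, while SIC1, the inhibitor of their kinase, rose 1.63-fold, from 151% and 153% to 248% and 247% (0.25 with spike-in scaling, adjusted p = 0.218). CDC53 and CDC34 rose by 0.28 ± 0.06 and 0.25 ± 0.06 on the main scale. CDC28, the kinase gene, fell by 0.41 ± 0.07.

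**Figure D4:**
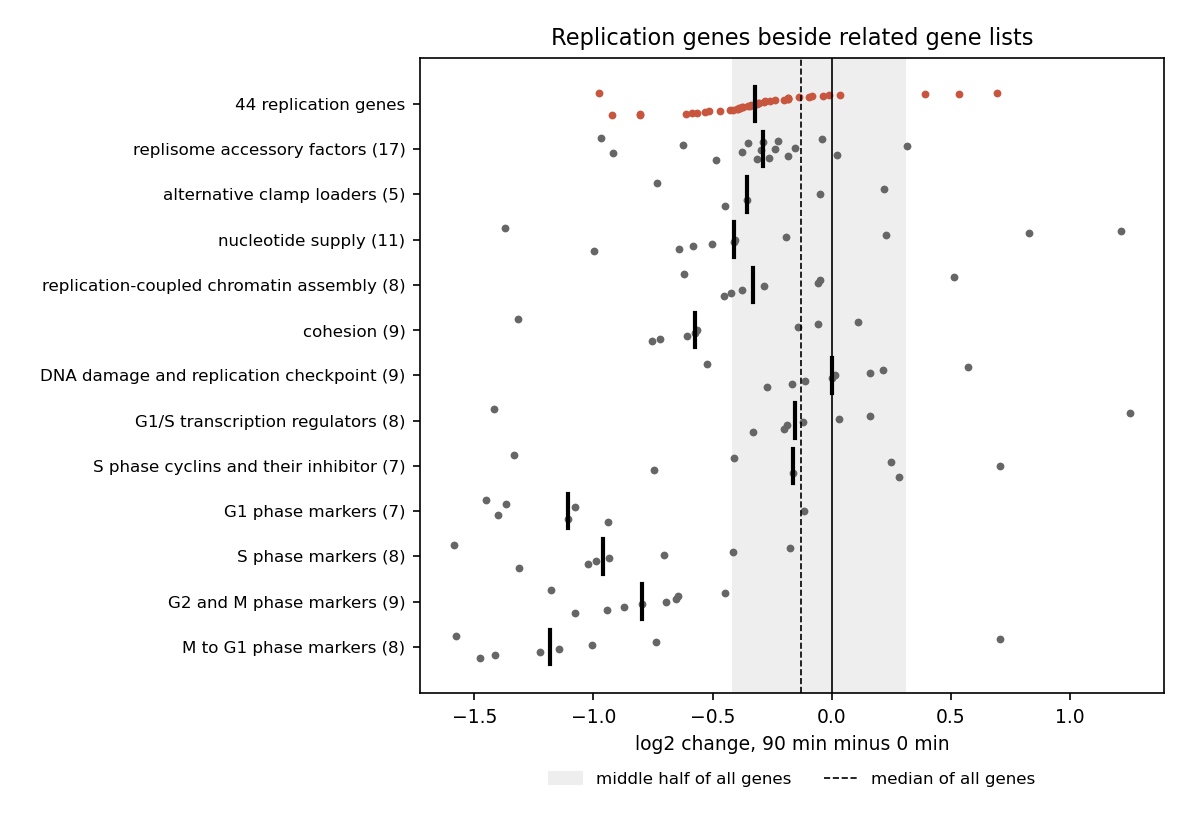
Log2 change from 0 to 90 min for the 44 replication genes and for 12 related lists (number of genes in brackets), one point per gene, with thick bars at list medians and vertical scatter for legibility only. Grey shading spans the quartiles of all genes, -0.41 to 0.31. The medians of the G1, S, G2 and M, and M to G1 marker lists (-1.11, -0.96, -0.80 and -1.18) lie left of the median of the replication genes (-0.32).

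Markers of cell cycle phases were also lower in most cases, where 46.2% of all genes fell. Of 7 G1 markers 6 fell, and their summed signal went from 491% to 511% at 0 min to 246% to 252% at 90 min. SVS1 (2.74-fold), YOX1 (2.64-fold), CLN2 (2.58-fold) and CSI2 (2.15-fold) fell most. All 8 histone genes used as S phase markers fell, with sums of 7498% to 7565% at 0 min and 4669% to 4834% at 90 min, led by HTB2 (3.00-fold), HTA2 (2.48-fold), HTB1 (2.03-fold) and HTA1 (1.98-fold). The histone genes are close copies of each other, so their single signals are uncertain. All 9 markers of G2 and M phase fell too, from sums of 440% to 443% to sums of 246% to 250%, with CLB2 (2.26-fold), CLB1 (2.11-fold), CDC5 (1.92-fold) and BUD4 (1.83-fold) in front. Of 8 markers of the passage from M to G1, 7 fell and SIC1 rose, with sums of 1744% to 1781% and then 984% to 995%. DSE2 (2.99-fold), CTS1 (2.78-fold), DSE1 (2.66-fold) and PCL9 (2.33-fold) fell most. No phase marker was at 0, and all were well above background on every array. The part of cell cycle phase in the lower replication transcripts was not tested.

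Neighbouring genes on the chromosome were looked at because some members lie next to each other. POL2 and ORC5 are adjacent, and both fell. POL30 and RFC5 are adjacent as well, and POL30 fell by 0.92 ± 0.07 while RFC5 did not pass (-0.18 ± 0.10). Over the 84 other genes that flank a member, 50 fell (59.5%), 17 rose and 17 did not pass. Of all genes, 46.2% fell and 30.3% rose. The median of the flanking genes was -0.22, between the median of the members and that of all genes. An effect of position was not tested.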

How the data were processed

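The deposited scanner files hold spot intensity in arbitrary units, which Agilent Feature Extraction 10.7.3.1 had background-subtracted and detrended, per the file headers. The authors' deposited value table holds log2 values. Limma is named for it in the submitters' processing notes, with no steps. It was used as an alternative.

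For each array, log2 processed signal was reduced by the log2 of the 75th percentile over yeast spots. The 2 spots of a probe were averaged, without spots marked as outliers (3 to 10 per array). A probe was kept if well above background on both arrays of a group, which left 6175 of 6256 probes and 6144 genes, each read from its brightest probe. The median signal was 2969 to 3697 and the median background 20.5 to 21.0, no yeast spot was saturated, and the 2 arrays per group limit the precision. Names came from a RefSeq gene table (R64), by locus tag for 5748 of the 6256 probes and by accession for 17. The other 491 kept the systematic name given with the probe. The array design is on sacCer2, so no coordinates are given.

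The test was that of limma 3.58.1, run in R 4.3.3 (lmFit, eBayes, Benjamini-Hochberg over all probes kept), with 2 residual and 4.46 prior degrees of freedom. It was also run on simulated data with independent noise for each probe and array and a change in few genes. That setting differs from these data, where 76.5% of genes were called, and cannot show effects shared by the genes of an array. The members and lists were chosen with earlier results of these data known, so no list was given a p-value. By rule, each role shows its 3 called genes with the largest change and all genes not called, and each other list up to 4 called genes with the largest change; other names were added after their values were seen. Alternatives were other scalings, normexp background correction (offset 50, on median signal), the deposited table, other filters, priors and thresholds, a replicate block, the mean of a gene's probes, and leaving out each array. A planned count of promoter elements was not run, since no sequence was used here.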

Additional observations from a re-analysis of the deposited data

How the results depend on the processing

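Across 18 alternatives, leaving aside the 2-fold limit, the number of replication genes that fell was 26 to 41, against 33. The share of all genes that fell moved with it, from 37.8% at adjusted p under 0.01 (26 of the list) to 62.7% with spike-in scaling (41 of the list), against 46.2%. With each array left out in turn, the list median was -0.35 to -0.30. With at least 2-fold change required on the main scale, 0 fell and 0 rose (3.87% and 8.92% of all genes). The largest change there was the 1.97-fold fall of POL1. With no scaling between arrays the list median was -0.52, and 2 rose (21% of all genes). With spike-in scaling the list median was -0.78, and 0 rose (11.1% of all genes). In the no-scaling and spike-in settings the values moved because all genes of an array shift alike. Scalings that shift all genes of an array alike cannot move the gap between the list median and the median of all genes. The filters and the mean of a gene's probes left the list median unchanged. In the remaining settings the gap was -0.17 with quantile normalization, -0.22 with normexp and -0.16 with the deposited table. It was -0.22 to -0.17 with 1 array left out. Spike-in scaling turned the sign of DPB11 (-0.063) and MCM4 (-0.42). Changes that were not called also switched sign in other settings. ORC1 was 0.054 with the deposited table, DPB4 0.0072 with median scaling and MCM4 -0.16 with no scaling between arrays. Leaving out 1 array ended the calls of DPB3, ORC2, RFA1, RFA3, RFC4, SLD2 and SLD5, and added ORC6, RFC2 and RFC5; each such fit rests on 1 lone array assumed to vary like the other group. With the threshold kept, direction and call held under each alternative processing and with each array left out for 26 of the 44 genes, all of them called.

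With the replicate number as a block, 35 genes fell (48.4% of all genes) and 3 rose (31.8% of all genes). It added ORC6 (-0.19, adjusted p = 0.016) and RFC5 (-0.18, adjusted p = 0.0441) and changed no other call. The deviations of same-numbered arrays correlated at r = 0.20 over probes, and with 2 pairs this does not show that the numbers pair the cultures. Small falls, near 0.2 on the log2 scale, are at the limit of what 2 arrays per group resolve.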
